A study of Mus musculus with 6 samples.

Results

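The germ cell RNA-binding regulators are 6 genes, Dazl, Dnd1, Nanos2, Nanos3, Elavl2 and Lin28a, chosen by symbol as RNA-binding proteins that license and direct germ cell fate. All 6 were among the 24470 genes of the count table, and 5 of them passed the filter on low counts that left 15577 genes for testing. The exception was Nanos2. Expression was measured by RNA-seq of whole testes on embryonic day E12.5 in 3 control samples, of the genotype Ppp1r3c f/f, and 3 conditional knockout (cKO) samples, of the genotype Sf1-Cre Ppp1r3c f/f, with 2 pairs of gonads pooled in each sample. Both groups thus carried the floxed alleles of Ppp1r3c, which encodes a glycogen-targeting subunit of protein phosphatase 1, and only the cKO group carried Cre. This Cre is a transgene driven by Nr5a1 (Sf1) sequences that acts in the progenitors of Sertoli cells, so the germ cells themselves were not its target.

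RNA-binding proteins steer fetal germ cells largely after transcription, by holding, translating or destroying messages. LIN28A blocks maturation of the let-7 microRNAs and is needed when primordial germ cells form. NANOS3 and DND1 protect migrating germ cells from death, DND1 being a partner through which NANOS proteins reach their targets and the CCR4-NOT deadenylase. DAZL is switched on when germ cells reach the gonad and licenses them to respond to its sex-determining signals. NANOS2 then appears in XY germ cells, where it holds back meiosis and starts the male programme. ELAVL2 belongs to the Hu family, which is otherwise best known from neurons.

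The promoters of Dazl and Nanos2, the most and the least abundant member, are shown because they stand at the ends of the range of levels. Both stretches are the 250 bases before the RefSeq transcription start in the build GRCm38.p6 (the build of the table's mm10 coordinates), read 5′ to 3′ on the strand of the gene. For Dazl, on the minus strand at chr17:50293621-50293870, the capitals mark CG dinucleotides, the sites of DNA methylation. For Nanos2, on the plus strand at chr7:18987274-18987523, they mark the 1 match to the letters of a TATA box (TATAAA, which lies on the reverse strand and reads TTTATA on the strand printed).
Dazl: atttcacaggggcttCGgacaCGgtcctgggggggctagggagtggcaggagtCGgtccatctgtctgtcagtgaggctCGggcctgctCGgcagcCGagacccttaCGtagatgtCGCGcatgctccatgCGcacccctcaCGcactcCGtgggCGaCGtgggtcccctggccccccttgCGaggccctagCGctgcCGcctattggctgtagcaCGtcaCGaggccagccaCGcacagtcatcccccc
Nanos2: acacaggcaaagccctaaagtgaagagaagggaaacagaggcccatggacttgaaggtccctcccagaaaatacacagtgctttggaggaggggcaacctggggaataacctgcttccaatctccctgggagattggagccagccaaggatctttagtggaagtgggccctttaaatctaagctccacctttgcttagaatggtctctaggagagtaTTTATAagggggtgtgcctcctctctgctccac
The Dazl stretch held 20 CG dinucleotides, a number reached by 17.9% of 32817 promoter windows of the same length. The Nanos2 stretch held 0, as did 7.87% of the windows, and its match lay 33 to 28 bases before the start. The same letters, on either strand, were in 12.4% of all windows and in no window of the other members that had one. Nanos3 had 3 and Lin28a 7 CG dinucleotides, and the 6 annotated starts of Elavl2 had between 10 and 21. An E-box (CACGTG) was in 6.02% of all windows and in none of the 5 members with a window, whereas a GC box (GGGCGG, either strand) was in 32.7% of all windows, in that of Nanos3 and in 5 of the 6 of Elavl2. The letters TCCCGC, an E2F-type motif searched on both strands, were in 16.9% of all windows and, among members, in 2 windows of Elavl2. These are matches of letters only.

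The libraries held 16139487 to 44145158 counts, control replicate 1 being the shallowest, and the next smallest held 33435079. Ppp1r3c, the targeted gene, was at 22.1 to 24.4 CPM (counts-per-million after TMM scaling) in control and at 4.71 to 5.96 CPM in cKO testes. Markers of Sertoli cells summed to between 1065 and 1502 CPM in each sample, and all 6 were tested. Besides control replicate 1 with its low depth, 1 library stood apart. Xist, the RNA of the inactive X chromosome, held 12534 counts in cKO replicate 3 and at most 41 in any other library, and the 7 pre-granulosa markers, genes of the female supporting cell, summed to 280 CPM there and to 74.3 to 105 CPM elsewhere. Results are therefore also given without this library and control replicate 1. As nothing in the labels names the embryos or litters behind each pool, p-values measure only the spread between these samples.

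Dazl lies on the minus strand of chromosome 17 (50279393 to 50293620). Its level was 173, 257 and 304 CPM in control replicates 1 to 3 and 195, 76.4 and 127 CPM in cKO replicates 1 to 3. The cKO samples were thus at 79.8%, 31.2% and 51.9% of the control mean, and cKO replicate 1 lay above control replicate 1, so the groups overlapped. The means were 245 ± 66.1 and 133 ± 59.7 CPM (SD, n = 3 each), and the log2 fold change was estimated at -0.88 (SE 0.299, FDR 0.377 by edgeR). In whole tissue, fewer germ cells and less Dazl RNA per germ cell cannot be told apart, which holds for every member below.

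Elavl2, on the minus strand of chromosome 4 (91250766 to 91399984), showed nearly the same pattern. It was at 27.9, 46.2 and 49.9 CPM in control replicates 1 to 3 and at 31.8, 14.4 and 20.7 CPM in cKO replicates 1 to 3. Again cKO replicate 2 was the lowest sample and control replicate 1 was below cKO replicate 1. For Elavl2 the log2 fold change came to -0.90 (SE 0.276, FDR 0.377 by edgeR). A microRNA gene, Mir6402, overlaps Elavl2 by 80 bases on the same strand. Since Elavl2 is also a neuronal gene, neuronal markers were examined: they summed to between 4.61 and 6.52 CPM in every sample. Stmn2 (2.22 to 3.37 CPM) and Chrnb4 (1.72 to 2.84 CPM) were detected in all 6 samples, while Th and Dbh, enzymes of catecholamine synthesis, were at 0.317 CPM or less. The part of neuronal RNA in the level of Elavl2 was not tested.

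Lin28a, the inhibitor of let-7 maturation, lies on the minus strand of chromosome 4 (134003330 to 134018816). It was at 33.5, 48.5 and 57.2 CPM in control replicates 1 to 3 and at 35.0, 19.4 and 26.3 CPM in cKO replicates 1 to 3. The overlap was narrow and came from control replicate 1 and cKO replicate 1 alone. For Lin28a the log2 fold change came to -0.80 (SE 0.222, FDR 0.377 by edgeR), from a mean of 46.4 ± 11.98 to 26.9 ± 7.84 CPM (SD, n = 3 each).

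Dnd1, the NANOS partner, lies on the minus strand of chromosome 18 (36763671 to 36766214) and overlaps Wdr55 by 38 bases on the other strand, which the strand-specific counting keeps apart. It was at 16.2, 24.5 and 23.2 CPM in control replicates 1 to 3 and at 16.2, 9.15 and 14.0 CPM in cKO replicates 1 to 3. The level of control replicate 1 and that of cKO replicate 1 were practically equal, and all other samples were separated by group. The log2 fold change of Dnd1 came to -0.71 (SE 0.209, FDR 0.377 by edgeR). Dnd1 was the 1 member called by DESeq2, the tool the authors used, with an FDR of 0.0429 at a log2 fold change of -0.70. That call was lost in DESeq2 without control replicate 2 (FDR 0.631), without cKO replicate 2 (FDR 0.243) and without cKO replicate 3 (FDR 0.268), and without control replicate 3 DESeq2 gave no adjusted p.

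Nanos3, the survival factor of early germ cells, lies on the minus strand of chromosome 8 (84173733 to 84176552) and gave the smallest difference of the 5 tested members. With 40 to 153 counts per library, it was at 2.46, 3.46 and 2.51 CPM in control replicates 1 to 3 and at 2.42, 1.36 and 2.84 CPM in cKO replicates 1 to 3. The library with Xist, cKO replicate 3, was the second highest of all samples, and the groups overlapped broadly. The log2 fold change of Nanos3 was -0.36 (SE 0.282, FDR 0.643 by edgeR), and without the 2 libraries that stand apart it was -0.65 (SE 0.314, FDR 0.509 by edgeR). Single libraries moved it the other way, to -0.11 without cKO replicate 2 and to -0.19 without control replicate 2.

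**Figure D1:**
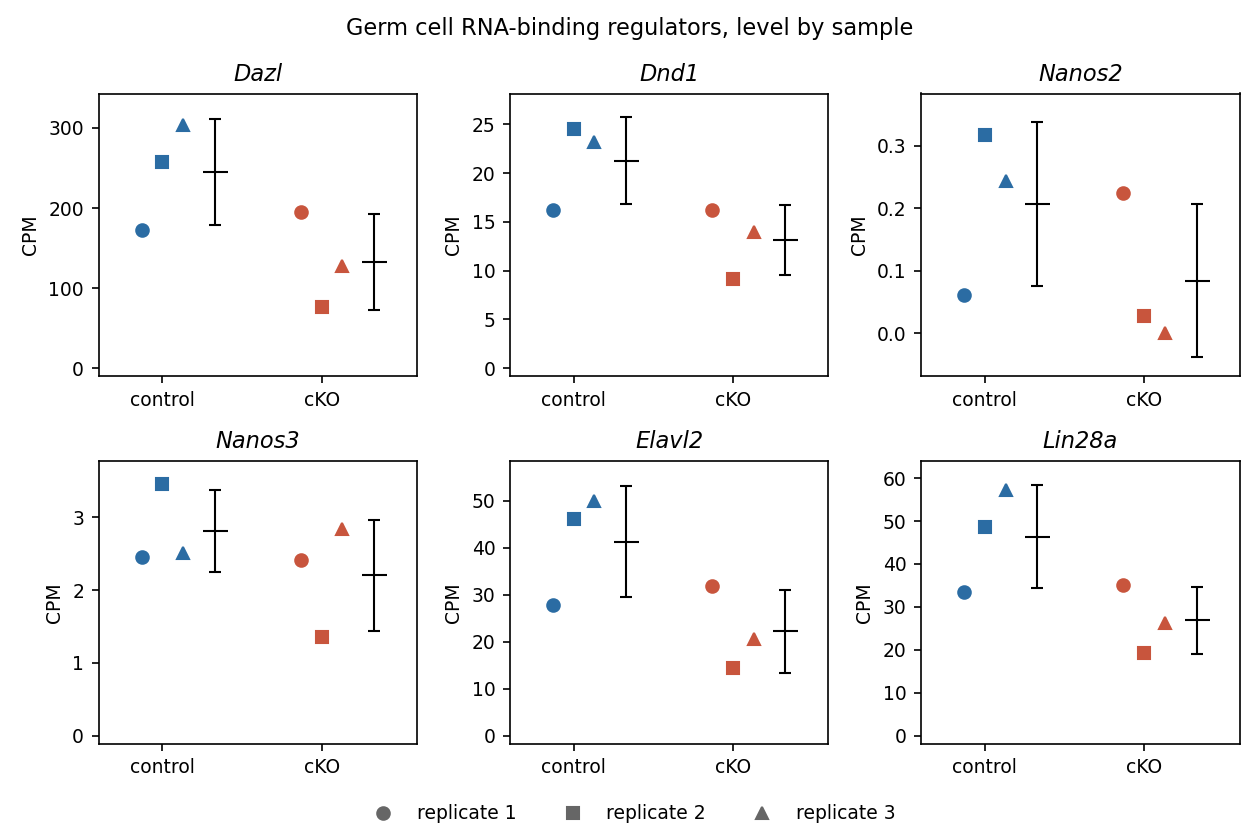
Level of each of the 6 members in counts-per-million (CPM, vertical axis, a separate scale for each gene) in the control (blue) and cKO (red) samples, with a symbol for each replicate and a bar for the mean ± SD of 3 samples. For Dazl, Dnd1, Elavl2 and Lin28a the cKO replicates 2 and 3 lie below every control sample, while cKO replicate 1 lies at or just above control replicate 1. The cKO bar of Nanos2 reaches below 0 because its SD exceeds its mean.

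Nanos2, whose onset marks the XY fate, was barely detected. Its gene lies on the plus strand of chromosome 7 (18987524 to 18988962). Control replicates 1 to 3 held 1, 14 and 10 counts, and cKO replicates 1 to 3 held 9, 1 and 0. In CPM, control replicate 2 was the highest at 0.317 (exact 95% Poisson interval 0.173 to 0.532), followed by control replicate 3 at 0.244 (0.117 to 0.449) and cKO replicate 1 at 0.224 (0.103 to 0.426). The intervals of these 3 samples overlapped. Control replicate 1 (0.0616 CPM, interval 0.00156 to 0.343) was too shallow to be placed above or below them. In cKO replicate 2 the level was 0.0278 CPM (interval 0.000704 to 0.155), and the count of 0 in cKO replicate 3 has an upper limit of 0.112 CPM by the same interval, or of 0.0908 CPM by the rule of 3 counts. The groups together held 25 counts of 101319757 in control and 10 of 109390495 in cKO testes, a ratio of 0.372 with an exact 95% interval of 0.159 to 0.801. That interval covers counting error only, and the exact permutation p over samples was 0.2 (two-sided, n = 3 each). In the fit without a filter on low counts, Nanos2 had a log2 fold change of -1.33 (SE 0.909, FDR 0.653 by edgeR), a value that depends on the prior count.

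Set against Ddx4, the germ cell helicase, Nanos2 held 1.13, 2.91 and 2.09 counts per 1000 Ddx4 counts in control replicates 1 to 3, and 3.68, 0.831 and 0 in cKO replicates 1 to 3. The highest and the lowest of these values were both in cKO samples. The 0 came from the library with Xist. The part of XX cells in it was not tested.

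**Figure D2:**
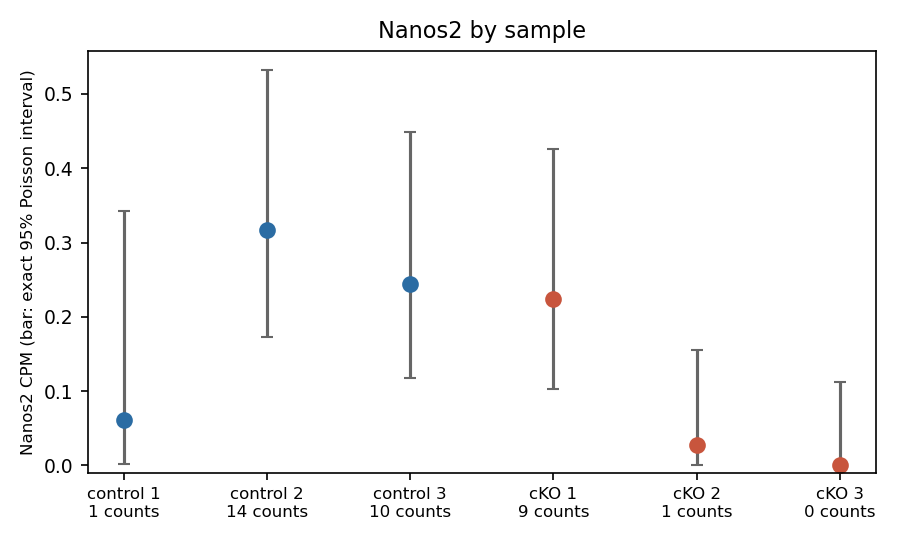
Nanos2 level in CPM (vertical axis) in each of the 6 samples, blue for control and red for cKO, with exact 95% Poisson intervals that cover counting error only and the counts under each sample. Control replicates 2 and 3 and cKO replicate 1 have overlapping intervals, while cKO replicates 2 and 3, with 1 and 0 counts, lie lowest.

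Over all genes, edgeR called 1 gene lower in cKO testes at an FDR under 0.05, which is 0.00642% of the genes tested (0.0385% with both directions). That gene was Ppp1r3c, the target of the deletion (log2 fold change -2.11, FDR 0.000126 by edgeR). Of the 5 tested members, 0 were called. All 5 had a log2 fold change below 0, as had 50.9% of all genes. At an unadjusted p under 0.05, 4 of the 5 were lower (Dazl, Dnd1, Elavl2 and Lin28a), against 5.8% of all genes. DESeq2 called 1 of 5 lower, against 0.379% of the genes it gave an adjusted p. None of the 5 had groups that did not overlap with cKO lower, a state that 7.17% of all genes were in. The median log2 fold change of the 5 tested members was -0.80, and that of all genes tested was -0.0034. For Dazl, Dnd1, Elavl2 and Lin28a the exact permutation p was 0.2 and for Nanos3 0.4 (two-sided, n = 3 each), where 0.1 is the smallest that 3 against 3 samples can give.

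With control replicate 1 and cKO replicate 3 both left out, edgeR gave log2 fold changes of -1.04 for Dazl (FDR 0.346), -1.05 for Elavl2 (FDR 0.316), -0.95 for Lin28a (FDR 0.299) and -0.91 for Dnd1 (FDR 0.299). These were larger than in all 6 samples, and no member was called. The same 4 members had an unadjusted p under 0.05, against 6.41% of all genes. Control replicate 1 was the lowest control sample for each of these 4 genes. With only that library left out, the values were -1.08 for Dazl, -1.10 for Elavl2, -0.97 for Lin28a and -0.86 for Dnd1. With only cKO replicate 3 left out, they were -0.85, -0.85, -0.78 and -0.76 in that order.

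The members differed widely in abundance, which is compared here per length, as RPKM (CPM per kilobase of exonic sequence in GENCODE M21). Dazl was the highest at 64.1 ± 17.3 RPKM in control and 34.8 ± 15.6 in cKO testes (SD, n = 3 each), and took between 62.8% and 70.8% of the summed RPKM of the 6 members in each sample. Lin28a followed at 11.6 ± 3.00 and 6.73 ± 1.96 RPKM, and Dnd1 at 8.83 ± 1.85 and 5.44 ± 1.498. Between samples the levels of these neighbours overlapped, but within every single sample Lin28a was above Dnd1. Elavl2 was at 4.97 ± 1.42 and 2.68 ± 1.06 RPKM and Nanos3 at 3.04 ± 0.610 and 2.39 ± 0.825, again with overlapping samples. Nanos2 was the lowest at 0.133 ± 0.0841 and 0.0538 ± 0.0783 RPKM. The order of the group means was the same in control and cKO testes. Exonic lengths ran from 924 bases for Nanos3 to 8313 for Elavl2 and count every annotated exon, so an RPKM is too low for a gene that uses only part of them.

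To set the members against other germ cell genes, a germ reference was formed from 10 genes chosen with earlier results of these data known. These were Ddx4, Dppa3, Dppa5a, Pou5f1, Mael, Tfap2c, Utf1, Sall4, Tdrd1 and Piwil2, and they stand for only a part of germ cell RNA. The mean log2 CPM of the germ reference, relative to the control mean, was -0.44, 0.19 and 0.24 in control replicates 1 to 3. It was -0.42, -1.31 and -0.73 in cKO replicates 1 to 3. Control replicate 1 and cKO replicate 1 were thus at the same germ reference level. Across the 6 samples the level of Dazl spanned 1.99 on the log2 scale, whereas its ratio to the germ reference spanned 0.46. For Lin28a the span went from 1.56 to 0.19, for Elavl2 from 1.79 to 0.31 and for Dnd1 from 1.41 to 0.25. In Nanos3 the span hardly narrowed, from 1.31 to 1.15.

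**Figure D3:**
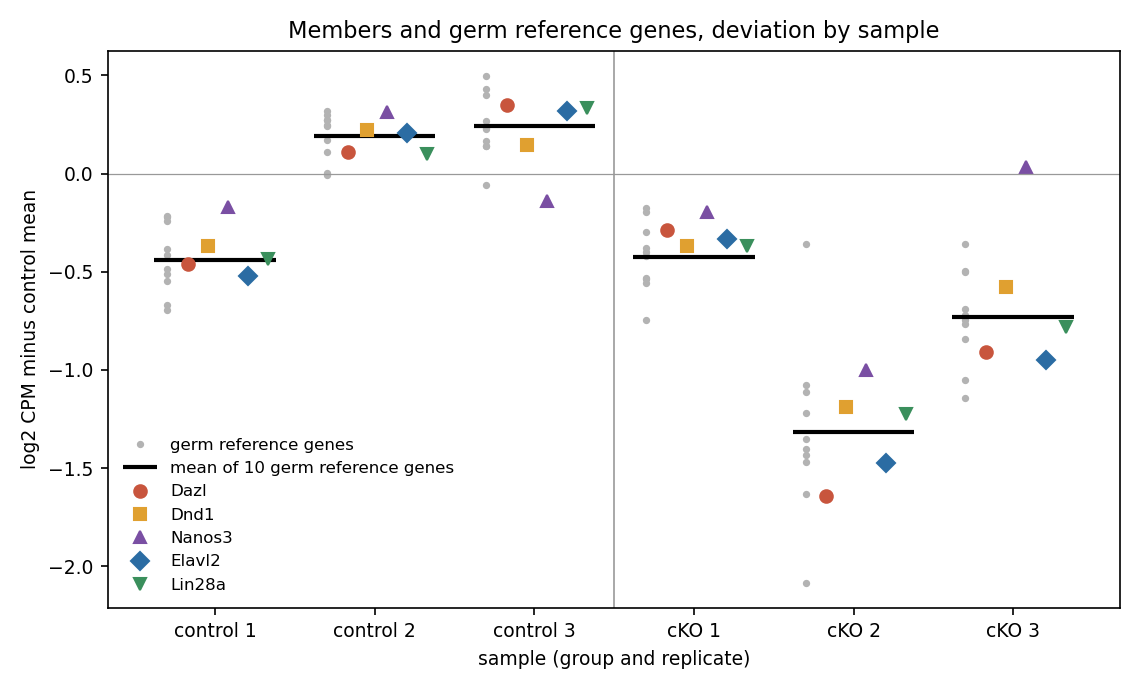
Log2 CPM minus the control mean (vertical axis) of the 5 tested members (coloured symbols), of the 10 germ reference genes (grey points) and of the mean of those genes (black bar) in each of the 6 samples. Dazl, Dnd1, Elavl2 and Lin28a lie within 0.33 of the black bar in every sample, whereas Nanos3 lies above it in cKO replicate 3 and below it in control replicate 3.

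Relative to the germ reference, the difference between cKO and control testes was -0.12 for Dazl, 0.11 for Dnd1, -0.10 for Elavl2 and 0.03 for Lin28a on the log2 scale, each with groups that overlapped. The exact permutation p was 0.5, 0.2, 0.5 and 0.6 in that order (two-sided, n = 3 each; 0.5 or 0.6 after adjustment over the 5 members). Single libraries moved these values. That of Dazl ran from -0.25 without cKO replicate 1 to -0.019 without cKO replicate 2, that of Elavl2 from -0.19 without cKO replicate 1 to -0.034 without cKO replicate 3, and that of Dnd1 was 0.062 without control replicate 3. For Lin28a it lay between -0.016 without control replicate 2 and 0.077 without control replicate 3. With all samples, the differences were smaller than those of the levels of the same 4 genes, which lay between -0.94 and -0.71 by the same measure. All 10 germ reference genes also had a log2 fold change below 0, and they were chosen with earlier results known. Smaller differences and spans thus follow in part from that choice, and they are a description only. For Nanos3 the difference was 0.44, with relative levels of -3.53, -3.67 and -4.18 in control replicates 1 to 3 and -3.57, -3.48 and -3.03 in cKO replicates 1 to 3 (exact permutation p 0.2, two-sided, adjusted 0.5). Its lowest value was in control replicate 3 and its highest in cKO replicate 3, and it was 0.24 without control replicate 3.

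**Figure D4:**
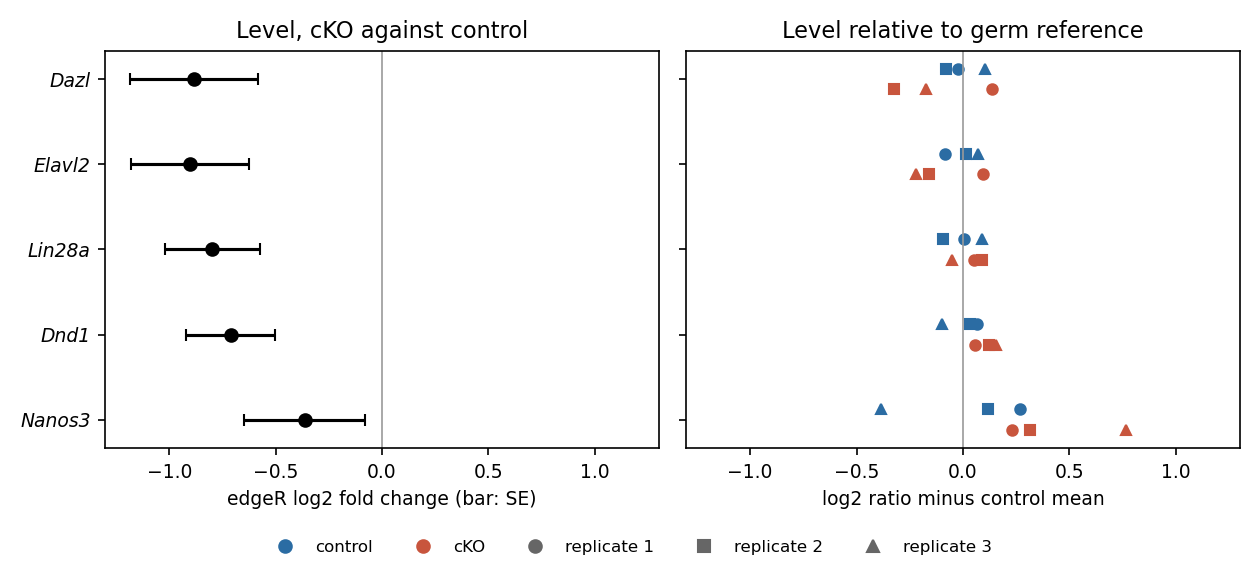
Left, edgeR log2 fold change (horizontal axis) of the 5 tested members with bars for the SE. Right, the log2 ratio of each member to the germ reference minus its control mean (horizontal axis) in each sample, blue for control and red for cKO, with a symbol for each replicate. The level changes lie between -0.90 and -0.36, while the ratios of Dazl, Elavl2, Lin28a and Dnd1 stay within 0.33 of 0 and those of Nanos3 spread from -0.39 to 0.76.

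Members were also compared with each other within samples. The CPM ratio of Dazl to Elavl2 was the steadiest, between 5.32 and 6.21 in the 6 samples, a span of 0.22 on the log2 scale. That of Elavl2 to Lin28a lay between 0.742 and 0.951. The ratio of Dazl to Lin28a was lowest in cKO replicate 2 at 3.94 and between 4.83 and 5.58 in the others. Ratios with Nanos3 varied most: Dazl exceeded it 44.7-fold in cKO replicate 3 and 121-fold in control replicate 3. Dazl, Elavl2 and Lin28a ranked the 6 samples in the same order, from control replicate 3 through control replicate 2, cKO replicate 1, control replicate 1 and cKO replicate 3 to cKO replicate 2. This order was also that of 3 of the 10 germ reference genes and of 1.59% of all genes tested. All 5 tested members and 9 of the 10 germ reference genes were lowest in cKO replicate 2, as were 23.7% of all genes.

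The genes whose log2 CPM followed each member most closely over the 6 samples were taken from all genes tested, by Pearson correlation. These correlations share libraries, depth and the germ cell content of each pool, and are a description. For Dazl they were Map7d2, Esrp1 and Zswim1 (r of 0.999, 0.998 and 0.998). For Elavl2 they were Esco2, Esrp1 and Atp10a (0.999, 0.998 and 0.998), so Esrp1, an epithelial splicing regulator, followed both. Dnd1 was followed by the pluripotency gene Zfp42, by Dppa5a and by Nodal (0.999, 0.999 and 0.998), and Lin28a by Hook1, Foxr1 and Mkrn1 (each 0.998). For Nanos3 the closest genes were Tfb1m, Faim and Eif2b1, at a lower r of 0.988, 0.986 and 0.986, and their log2 fold changes, from -0.13 to -0.06, were small.

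Among the genes these proteins work with or through, the deadenylation partners were close to level in whole testes. Their level within germ cells was not measured, as whole tissue does not separate germ cell RNA from that of other cells. This list holds the CCR4-NOT subunits, the PUMILIO proteins, which bind RNA together with NANOS, and the helicase Ddx6. All 14 were tested, with 7 higher and 7 lower, a median log2 fold change of -0.0019 and a range from -0.12 to 0.09. edgeR called 0 of 14, at an unadjusted p under 0.05 there were also 0, and DESeq2 called 0. The gene of lowest p was Cnot2, a scaffold subunit, with a log2 fold change of -0.12 (SE 0.0551, FDR 0.447 by edgeR).

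The list of the let-7 axis, with the microRNA processing enzymes, the TUT4 and TUT7 uridylyltransferases that act with LIN28A, and known let-7 targets, had a median of 0.016 over 11 tested genes. edgeR and DESeq2 called 0 of 11. At an unadjusted p under 0.05, 2 were higher (Hmga2 and Igf2bp2, both let-7 targets) against 5.56% of all genes. Igf2bp1 and Igf2bp3, also in the list, were at 0.09 and 0.02 (FDR 0.691 and 0.928 by edgeR). At an unadjusted p under 0.05, 2 were lower (Dgcr8 and Trim71), against 5.8% of all genes. Dgcr8, the partner of Drosha, was the gene of lowest p, at a log2 fold change of -0.19 (SE 0.0602, FDR 0.377 by edgeR). Trim71, itself a let-7 target and named here after its values were seen, had -0.71 (SE 0.257, FDR 0.382 by edgeR), a size like that of the members. It was at 14.4, 18.7 and 23.7 CPM in control and at 16.1, 7.45 and 11.5 CPM in cKO replicates 1 to 3.

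Of the paralogs, 8 of 9 were tested and had a median of -0.045 in a range from -0.63 to 0.66, and edgeR and DESeq2 called 0. Rbm46, a relative of Dnd1 with a role in germ cells, was the gene of lowest p, at a log2 fold change of -0.63 (SE 0.219, FDR 0.380 by edgeR) and levels of 12.2 ± 2.85 and 7.98 ± 2.18 CPM (SD, n = 3 each). Elavl1, the ubiquitous Hu protein, was at 0.11, Lin28b, the second LIN28 gene, at -0.08 and Nanos1 at 0.05, with an edgeR FDR of 0.582, 0.835 and 0.921. These 3 genes were chosen after their values were seen.

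The list of the male germ cell programme holds the Nodal pathway genes and others that mark XY germ cells, and 7 of its 8 genes were tested. All 7 had a log2 fold change below 0, against 50.9% of all genes. The median was -0.95 and the range ran from -1.10 to -0.08 (Piwil4). At an unadjusted p under 0.05, 5 were lower, against 5.8% of all genes. edgeR called 0 of them. DESeq2 called 3 lower, against 0.379% of the genes it gave an adjusted p. Among the 3 were Nodal (FDR 0.0464) and its co-receptor Tdgf1 (FDR 0.0444). Nodal had an edgeR estimate of -0.95 (SE 0.279, FDR 0.377). Dnmt3l, which acts after Nanos2 in male germ cells, was at 0.0732 CPM or less in every sample and was not tested.

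The meiotic entry list holds genes of the programme that NANOS2 is known to hold back. Of 12 genes, 11 were in the table and 10 were tested. Of the 10, 8 were below 0, against 50.9% of all genes, and the median was -0.96. At an unadjusted p under 0.05, 7 were lower, against 5.8% of all genes, and edgeR called 0. DESeq2 called 1 lower, Sohlh2 (FDR 0.00163), against 0.379% of the genes it gave an adjusted p. The edgeR estimate of Sohlh2 was -0.97 (SE 0.223, FDR 0.377). Stra8, the gatekeeper of meiosis, was at 0.123 CPM or less in every sample and was not tested. Rec8, a meiotic cohesin, went the other way in 1 library, with 12.49 CPM in cKO replicate 3, the library with Xist, and 3.11 to 7.26 CPM elsewhere.

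In the germ reference itself all 10 genes had a log2 fold change below 0, against 50.9% of all genes. Their median was -0.84. At an unadjusted p under 0.05, 9 were lower, against 5.8% of all genes. edgeR called 0. DESeq2 called 1 lower, Mael (FDR 0.0135), against 0.379% of the genes it gave an adjusted p. Ddx4 had -0.92 (SE 0.279, FDR 0.377 by edgeR) and Dppa3, of lowest p, -1.24 (SE 0.271, FDR 0.377 by edgeR). The medians of the members, the germ reference, the male programme and the meiotic genes thus lay between -0.96 and -0.80. Those of the paralogs, the let-7 axis and the deadenylation partners lay between -0.045 and 0.016. The part of germ cells in the RNA of these last lists was not measured, so the contrast does not give their level in germ cells.

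**Figure D5:**
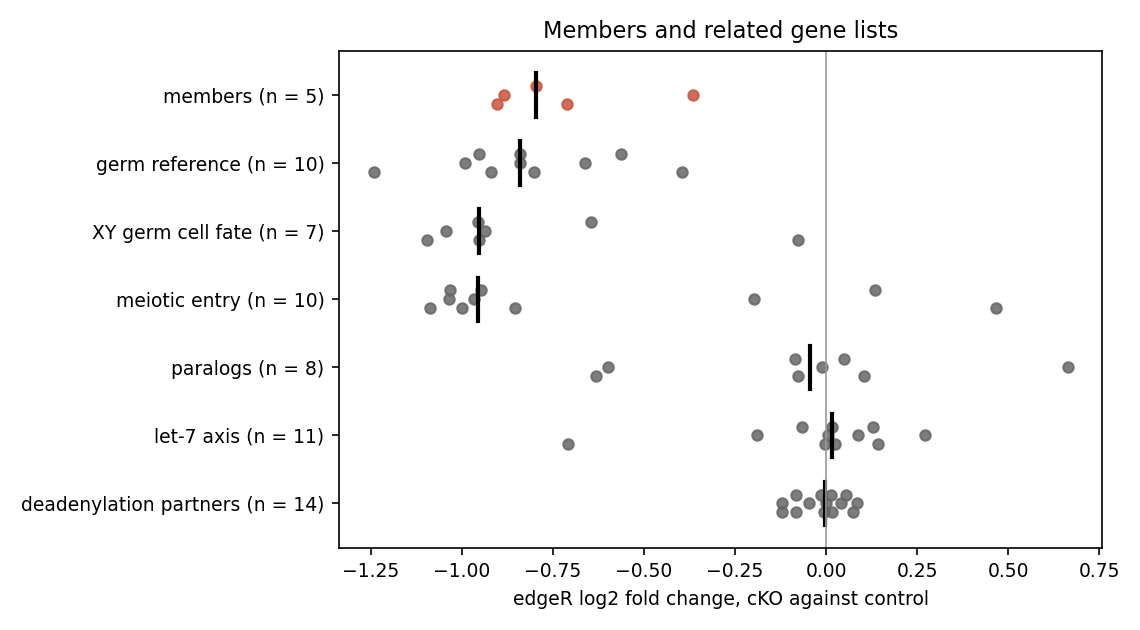
EdgeR log2 fold change of cKO against control (horizontal axis) for each tested gene of the members and of 6 related lists, with a black bar at the median of each list. The 4 lists of germ cell genes have medians from -0.96 to -0.80, and the paralogs, the let-7 axis and the deadenylation partners have medians near 0.

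Markers of the other cell types in the testis, summed over each list, had ranges that overlapped between groups except for pre-granulosa cells. Those were at 74.3 to 97.5 CPM in control and 99.3 to 280 CPM in cKO testes. The 280 CPM came from cKO replicate 3, the library with Xist. In cKO replicates 1 and 2 the sums were 105 and 99.3 CPM, just above the highest control. The Sertoli cell markers summed to 1142 to 1487 CPM in control and 1065 to 1502 CPM in cKO testes, and the fetal Leydig markers to 238 to 435 and 162 to 369 CPM. Endothelial markers lay between 515 and 590 CPM in every sample, macrophage markers between 19.6 and 22.6 CPM, erythroid markers between 1826 and 2684 CPM and mesonephros markers between 18.0 and 27.7 CPM. Such sums can hide single genes. Of the 4 tested mesonephros markers, 3 were higher and 1, Lhx1, was lower in cKO testes. Pax8 was at 8.35 to 10.1 CPM in control and 10.8 to 16.4 CPM in cKO testes. Amh, at 588 to 920 CPM, was the largest part of the Sertoli sum. Of the 6 Sertoli markers, 2 were higher, among them Sox9 (0.28, FDR 0.377 by edgeR), and 4 lower. The part of these cell types in the values of the members was not tested.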

How the data were processed

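RNA-seq libraries (stranded mRNA) were made from E12.5 testes, 3 control and 3 cKO. The deposited values were raw counts per gene. The authors aligned read pairs to mm10 with STAR (2.5 in the submitters' processing notes) and counted them per RefSeq gene with featureCounts in reverse-stranded mode, with no normalization. Groups and replicate numbers came from the sample titles, and 0 columns of values were left unused.

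Counts were tested with edgeR (4.0.16, R 4.3.3): filterByExpr (minimum count 10), TMM and the quasi-likelihood F-test over all 6 samples, with Benjamini-Hochberg adjustment over all genes tested and calls at an FDR under 0.05. The SE was derived from the F statistic. A prior count of 2 entered log2 CPM. DESeq2 (1.42.0) and limma-voom (limma 3.58.1) were alternatives, and all 3 were tested on simulated data. The simulation drew each gene independently, so it lacked the shared shifts of germ cell genes seen between these samples. For 3 against 3 samples the smallest exact permutation p is 0.1. Exonic lengths came from GENCODE M21 and promoters from RefSeq (GRCm38.p6), where 5 of 6 members had a window.

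The members and gene lists were chosen with earlier results of these data known. Named genes are the members, the checks (Ppp1r3c, Xist), called genes and the gene of lowest p of each list, Ddx4, and the 3 genes most correlated with each tested member. The gene of lowest p in the list of male germ cell genes is not reported here. Of the marker lists, sums are given. Any other gene was chosen after its values were seen. Leaving out 2 libraries together, and DESeq2 without single samples, were also chosen after seeing the data.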

Additional observations from a re-analysis of the deposited data

How the results depend on the processing

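The log2 fold changes of Dazl, Dnd1, Elavl2, Lin28a and Nanos3 stayed below 0 in all 19 alternatives. Leaving out single samples, edgeR gave -1.27 to -0.61 for Dazl, -0.90 to -0.51 for Dnd1, -1.26 to -0.67 for Elavl2, -1.04 to -0.61 for Lin28a and -0.58 to -0.11 for Nanos3, and called 0 members. The number of members called lower depended on the tool. It was 0 with edgeR, limma-voom, the stricter filter, no filter or RLE scaling, and 1 with DESeq2 (Dnd1, -0.70, FDR 0.0429). DESeq2 without single samples called 0 to 2 members: Dnd1 without control replicate 1 (-0.86, FDR 0.00861) and without cKO replicate 1 (-0.88, FDR 0.00616), and Elavl2 also without cKO replicate 1 (-1.23, FDR 0.0496). Without control replicate 2, cKO replicate 2 or cKO replicate 3 the DESeq2 FDR of Dnd1 was 0.631, 0.243 and 0.268, and without control replicate 3 none was given. The cause was not tested. Over its alternatives the FDR of Dnd1 ranged from 0.00616 to 0.777.

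The sample titles share replicate numbers, but no pairing was seen: within replicate 1, 2 and 3, the correlation of both samples' deviations was -0.20, -0.27 and -0.13. With the replicate block, edgeR called 0 members, with log2 fold changes of -0.96 for Dazl and -0.72 for Dnd1.

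Relative to the germ reference, the sign of Lin28a changed without control replicate 2 (-0.016, range to 0.077 without other single samples). Nanos3 ranged from 0.24 to 0.57. With Ddx4 alone as the reference, the differences were -0.067 for Dazl, 0.16 for Dnd1, -0.042 for Elavl2, 0.085 for Lin28a and 0.49 for Nanos3. The medians of the 7 lists moved by less than the spread between samples in all 13 alternatives run on them. Depth limits Nanos2, with at most 14 counts in a library.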

Other observations

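Lhx1, a marker in the mesonephros list that was singled out after its values were seen, ranked the 6 samples in the order of Dazl. It was at 8.37, 15.0 and 16.4 CPM in control replicates 1 to 3 and at 11.9, 3.81 and 7.84 CPM in cKO replicates 1 to 3, and its log2 fold change was estimated at -0.78 (SE 0.361, FDR 0.450 by edgeR). The other tested genes of that list, Pax2, Pax8 and Gata3, had log2 fold changes of 0.78, 0.52 and 0.51.

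Piwil4 and Dmc1, which belong to the germ cell lists, had smaller estimated changes than the medians of those lists. Their log2 fold changes were -0.08 (SE 0.511, edgeR FDR 0.972) and -0.20 (SE 0.327, edgeR FDR 0.853). Piwil4 held only 5 to 40 counts per library, and its SE is too wide to set it apart from its list median of -0.95. Taf7l, at 2.18 CPM in cKO replicate 3 and 1.54 CPM or less elsewhere, had 0.47, and Rec8 had 0.13 (SE 0.460). All of these genes were also singled out after their values were seen.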
